A study of Schmidtea mediterranea with 11 samples.

Results

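The comparison described here is that of whole planarians after knockdown of smedwi-2 with worms that received the control RNAi, taken from a transcript abundance table of the flatworm Schmidtea mediterranea. It uses 4 of the 11 polyA RNA libraries of the series: 1 smedwi-2(RNAi) library, for which the labels state no day, and 3 control(RNAi) libraries, taken on days 20, 25 and 30. All were made from whole adult worms of the asexual Berlin-1 strain, a laboratory line grown from a single animal. Double-stranded RNA was injected, and the controls received dsRNA of gfp, a gene the worm does not have. The groups differ in the target of the injection, and they may also differ in day and handling. The remaining libraries of the series, 1 of smed-h2b(RNAi) and 3 each of bruli(RNAi) and mbnl(RNAi) on days 20, 25 and 30, are used only where values are set side by side.

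Planarians hold a population of dividing stem cells, the neoblasts, which replace every differentiated cell type of the body. Neoblasts express Piwi proteins, Argonaute-family proteins that bind piRNAs, together with Tudor-domain proteins and Vasa-type helicases that sit in cytoplasmic granules like those of animal germ cells. smedwi-2 encodes one of these Piwi proteins. Worms depleted of it are known to keep neoblasts for a time, while the progeny fail to replace lost tissue, whereas depletion of the histone gene smed-h2b is known to remove the neoblasts themselves.

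Abundance is given in TPM, the reads of a transcript corrected for its length and scaled so that every library sums to 1000000. Differences are given as log2(TPM + 1) of the smedwi-2(RNAi) library minus the mean of the 3 control(RNAi) libraries. A transcript was called higher or lower only when the smedwi-2(RNAi) library lay above the highest or below the lowest control by more than 0.7 on that scale, which is here termed its distance from the control range. With 1 knockdown library there is no replicate check. A permutation of 1 library against 3 cannot give a one-sided p under 0.25, so no test was made, and the day of the library, its handling and the knockdown cannot be told apart. It is not stated whether the controls were separate cohorts of worms, so their spread may include little biological variation.

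Of 26562 transcripts, 15551 had a mean log2(TPM + 1) above 1.5 over the 4 libraries. The whole reads behind the TPM values could be recovered, and totalled 8460052 in the smedwi-2(RNAi) library and 5886640 to 8144436 in the controls. smedwi-2(RNAi) differed from each control by a median of 0.27 to 0.31 on the log2 scale, in absolute size, against 0.13 to 0.19 between pairs of controls. The day 20 control stood furthest from the other 2 controls.

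By its distance from the control range, the targeted transcript was itself the one that fell furthest. By fold alone, some transcripts with few reads fell further. smedwi-2 had 11.6 TPM in smedwi-2(RNAi) worms, against 108.1, 114.5 and 115.2 TPM in control(RNAi) worms on days 20, 25 and 30. The controls averaged 112.6 ± 3.94 TPM (SD, n = 3), which is 9.75-fold the level in the knockdown library. The 772 reads behind the knockdown value give an exact Poisson 95% interval of 10.8 to 12.4 TPM, which covers counting error only. Its distance below the control range was −3.12 on the log2 scale, the lowest of all transcripts kept, and the next reached −2.70. In the other knockdowns it stood at 57.9 TPM in the smed-h2b(RNAi) library, at 45.2 to 59.9 TPM in the bruli(RNAi) libraries and at 117 to 129 TPM in the mbnl(RNAi) libraries.

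Across the transcriptome, 473 of the 15551 transcripts were higher, or 3.04%, and 565 were lower, or 3.63%. These shares are the background against which the counts of the gene groups are read. They depend on the settings: without the day 20 control 583 were higher and 886 lower, and the balance turned with a pseudocount of 5, to 314 higher and 278 lower, and with no filter, to 1050 and 738. The median difference over all transcripts kept was 0.03. Whatever the distance, the smedwi-2(RNAi) library lay above all 3 controls for 36.6% of transcripts, below them for 31.9% and inside their range for 31.6%. Among the transcripts that rose, 53 lay more than 2 log2 units above the control range, and 10 of those that fell lay as far below it. The transcripts that rose had a median control level of 9.93 TPM and those that fell one of 19.7 TPM.

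**Figure D1:**
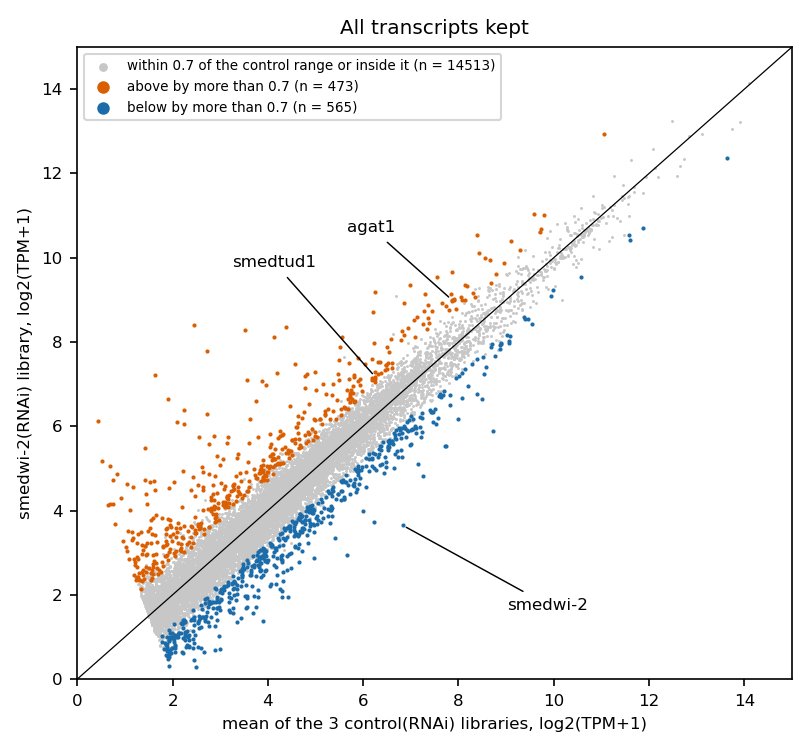
Each point is 1 of 15551 transcripts, with log2(TPM+1) in the smedwi-2(RNAi) library on the vertical axis and the mean of the 3 control(RNAi) libraries on the horizontal axis; the line marks equal values. The 473 transcripts called higher and the 565 called lower lie on both sides of the line at all levels, and smedwi-2 is the lower transcript at 11.6 against a control mean of 112.6 TPM.

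The other Piwi and germ granule transcripts did not follow smedwi-2 down. smedwi-1, a second Piwi gene and the usual marker of neoblasts, had 260.4 TPM in smedwi-2(RNAi) worms, against 192.9, 206.2 and 211.9 TPM in the controls. A further transcript whose best human match is PIWIL1 (comp1258_c0_seq1) had 268.3 TPM after the knockdown, against 208.2, 219.1 and 223.5 TPM. Both lay above every control, by 0.30 and 0.26, and so neither reached the call.

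vasa-1, a DEAD-box helicase of the granules, stood further out, with 141.8 TPM in smedwi-2(RNAi) worms against 91.2, 90.1 and 89.2 TPM in the controls. Its difference of 0.65 was wide beside a control span of 0.03. A second Vasa-type helicase with the best human match DDX4 (comp2082_c0_seq1) had 106.7 TPM, against 66.6, 65.5 and 67.3 TPM in the controls. The 2 helicases thus lay 0.63 and 0.66 above the control range, just short of the 0.7.

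smedtud1, a Tudor-domain protein of the kind that binds methylated Piwi proteins, was the 1 member of the group called higher. It had 143.4 TPM in smedwi-2(RNAi) worms, against 59.9, 82.7 and 85.9 TPM in the controls, a distance of 0.73. The day 20 control was the low one, and the knockdown library exceeded all 3. The call was lost when the 4 libraries were quantile normalized, where the difference was 0.85 compared with 0.92 on the deposited scale. A further 3 Tudor-type transcripts, named by their best human match, gave smaller differences, of 0.41 for TDRKH (comp3961_c0_seq1), 0.18 for TDRD12 (comp4638_c0_seq1) and 0.08 for TDRD9 (comp5842_c0_seq1). The TDRD12 and TDRD9 matches lay inside the control range.

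All 8 Piwi and germ granule transcripts other than smedwi-2 had a difference above 0, as did 8264 of the 15551 transcripts kept. The median of the 8 was 0.38, and 1 of them was called, against 3.04% of all transcripts. Their summed abundance was 1024 TPM in smedwi-2(RNAi) worms and 336 TPM in the smed-h2b(RNAi) library, against 698, 753 and 766 TPM in the controls. In whole worms, a larger number of cells of a type and more RNA in each cell cannot be told apart.

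**Figure D2:**
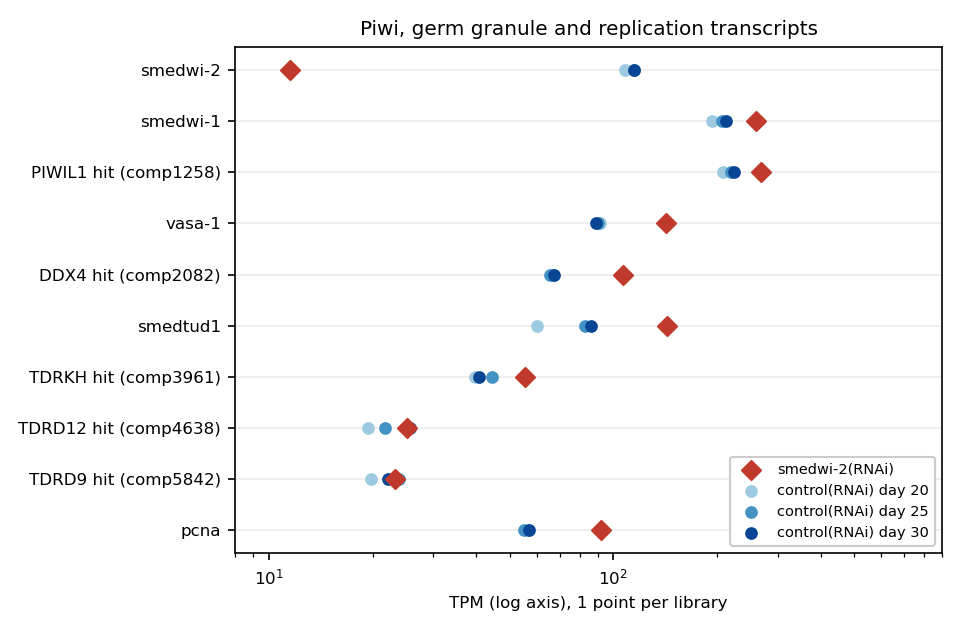
TPM on a log axis of smedwi-2, 8 further Piwi and germ granule transcripts and pcna, with 1 point per library; diamonds mark smedwi-2(RNAi) and circles the controls of days 20, 25 and 30. smedwi-2 lies far left of its controls, vasa-1, the DDX4 match, smedtud1 and pcna lie right of all 3, and the TDRD12 and TDRD9 matches lie among them.

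The marker of DNA replication behaved like the helicases. pcna, the sliding clamp of DNA polymerase, had 92.0 TPM in smedwi-2(RNAi) worms, against 56.4, 55.2 and 56.9 TPM in the controls. It lay 1.64-fold above their mean, with a distance of 0.68 that falls just under the call. Its 594 reads in the knockdown library give an interval of 84.8 to 99.7 TPM, which lies above every control value but covers counting error only. The 4 pan-neoblast markers used here, smedwi-1, pcna, vasa-1 and smedtud1, summed to 638 TPM in smedwi-2(RNAi) worms and to 155 TPM in the smed-h2b(RNAi) library, against 400, 434 and 444 TPM in the controls. The 2 single-library knockdowns thus lay on opposite sides of the controls.

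The same order was seen at single genes. smedwi-1 had 260.4 TPM, vasa-1 141.8 TPM and pcna 92.0 TPM in the smedwi-2(RNAi) library, against 51.2, 27.8 and 16.7 TPM in the smed-h2b(RNAi) library. In bruli(RNAi) worms, which lack an RNA-binding protein of the CELF family, pcna was at 5.63, 3.43 and 5.91 TPM on days 20, 25 and 30. In mbnl(RNAi) worms, depleted of muscleblind splicing factors, it was at 60.2, 63.0 and 64.8 TPM, between the controls and smedwi-2(RNAi). The bruli transcript itself, a neoblast-enriched one, had 82.4 TPM in smedwi-2(RNAi) worms and 82.9 to 84.9 TPM in the controls.

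Beyond the Piwi proteins, 7 transcripts of the microRNA and siRNA machinery were measured and none was called, against 3.04% higher and 3.63% lower among all transcripts. The widest difference belonged to 1 of 3 transcripts with the best human match AGO2, the Argonaute that cuts targets of small RNAs. This one (comp7594_c0_seq1) had 35.6 TPM in smedwi-2(RNAi) worms, against 18.0, 24.3 and 21.9 TPM in the controls. It lay above all 3 controls, at a distance of 0.53. The 2 other AGO2 matches differed from the control mean by 0.08 and 0.04, and the match of DICER1, the nuclease that cuts small RNA precursors (comp8502_c0_seq1), lay inside a wide control range of 6.58 to 17.0 TPM.

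Neoblasts are divided by their transcription factors into zeta cells, which give rise to the epidermis, gamma cells, which give rise to the gut, and sigma cells, a broader class that can produce the zeta cells. None of the markers of these classes was called, against 3.04% higher and 3.63% lower among all transcripts. The 11 zeta markers had a median difference of −0.03 and ranged from −0.45 for six6 to 0.33 for soxP-3. six6 and nkx2.4, homeobox factors at 5.44 and 26.03 TPM in smedwi-2(RNAi) worms, were at 7.13 to 8.40 and 34.04 to 39.4 TPM in the controls. soxP-3, a Sox-family transcription factor of the zeta class, had 35.2 TPM in smedwi-2(RNAi) worms, against 29.0, 25.7 and 29.0 TPM in the controls. egr-1, an early growth response factor of the same class, had 16.5 TPM against 22.6, 20.95 and 21.8 TPM. The first lay above and the second below all 3 controls. In all, 3 zeta markers lay above, 5 below and 3 inside the control range, against 36.6%, 31.9% and 31.6% of all transcripts.

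The 9 sigma markers had a median difference of 0.18, with 6 above and 3 below the control range, against 36.6% and 31.9% of all transcripts. lhx-2, a LIM homeobox factor, was the highest at 13.8 TPM in smedwi-2(RNAi) worms and 8.67, 9.004 and 11.6 TPM in the controls. fgfr-4, a receptor of fibroblast growth factors, was the lowest at 9.76 TPM, against 12.1, 13.7 and 15.8 TPM.

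The gamma markers were the class whose 4 members all lay below the control range, as did 31.9% of all transcripts. hnf-4, a nuclear receptor of gut cells, had 78.0 TPM in smedwi-2(RNAi) worms, against 120.0, 102.4 and 103.6 TPM in the controls. nkx2.2, a homeobox factor of the gut lineage, had 59.0 TPM, against 88.8, 83.0 and 77.5 TPM. Neither overlapped its controls, and both distances were −0.39, short of the call. prox-1, also a homeobox factor, and gata4/5/6, a GATA factor of the gut, differed from the control mean by −0.31 and −0.13. Their distances were −0.22 and −0.04, so gata4/5/6 lay at the edge of the range. The 4 genes summed to 178 TPM in smedwi-2(RNAi) worms and to 225 TPM in the smed-h2b(RNAi) library, against 257, 232 and 224 TPM in the controls. The median difference was −0.39, against 0.03 for all transcripts.

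Cells that leave the zeta class pass through early epidermal progeny, which express the secreted proteins of the prog and pmp groups, and then late epidermal progeny, which express the agat genes. Of 27 early markers, 2 were called higher, or 7.41%, against 3.04% of all transcripts, and none lower, against 3.63%. Above the control range lay 16 and below it 3, against 36.6% and 31.9% of all transcripts. The median difference was 0.21. prog-1-9 had 55.0 TPM in smedwi-2(RNAi) worms, against 10.8, 22.4 and 15.4 TPM in the controls, and DCOR-1 had 30.0 TPM against 13.1, 13.5 and 13.4 TPM. Both thus rose beyond the spread of the controls, which was 0.03 log2 units for DCOR-1 and 0.99 for prog-1-9.

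The other early markers did not reach the call. prog-2-1 had 2830 TPM in smedwi-2(RNAi) worms, against 1985, 1695 and 1771 TPM in the controls, and lay 0.51 above their range. prog-1, the gene most used to follow these cells, had 334 TPM, against 391, 268 and 381 TPM, and lay inside it. pmp-3, at 65.6 TPM against 34.4, 26.1 and 40.1 TPM, was the marker just short of the call, with a distance of 0.697. It passed when the pseudocount was 0.5, when the controls were quantile normalized, when libraries were centred on their medians and without the day 30 control.

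pmp-6 had 544 TPM in smedwi-2(RNAi) worms, against 332, 336 and 346 TPM in the controls. prog-1-5 had 279 TPM, against 174, 163 and 164 TPM. Both stood clear of controls that agreed closely with one another, at distances of 0.65 and 0.67. In the smed-h2b(RNAi) library they were at 261 and 156 TPM, whereas prog-1, which lay inside the control range after smedwi-2 knockdown, was at 87.1 TPM. prog-1-6 had the lowest difference of the early markers, −0.49, with 33.6 TPM in smedwi-2(RNAi) worms and 50.8, 43.1 and 49.0 TPM in the controls.

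Of 6 late progeny markers, 2 were called higher, against 3.04% of all transcripts, and none lower. agat1, which encodes an amidinotransferase, had 511 TPM in smedwi-2(RNAi) worms, against 247, 210 and 238 TPM in the controls. Its paralogue agat2 had 500.1 TPM, against 242, 215 and 235 TPM. Both rose, by 2.21-fold and 2.17-fold over the control mean, with no overlap. The third paralogue, agat3, had 126 TPM against 78.0, 74.2 and 79.2 TPM, and at a distance of 0.66 it was not called. As the paralogues resemble each other, reads could in part be shared between them, and the 3 are not independent.

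The remaining late markers did not accompany the agat genes. odc, an ornithine decarboxylase homologue, had 52.9 TPM in smedwi-2(RNAi) worms, against 48.4, 45.6 and 49.1 TPM in the controls. ras-rel lay inside the control range. mcp had 31.5 TPM, against 48.1, 50.02 and 51.6 TPM, and with a distance of −0.60 it was the late marker furthest below its controls. The late list summed to 1231 TPM in smedwi-2(RNAi) worms and to 552 TPM in the smed-h2b(RNAi) library, against 672, 605 and 664 TPM in the controls. The early list summed to 10174 TPM in smedwi-2(RNAi) worms and to 3942 TPM in the smed-h2b(RNAi) library, against 8272, 7024 and 7906 TPM in the controls.

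**Figure D3:**
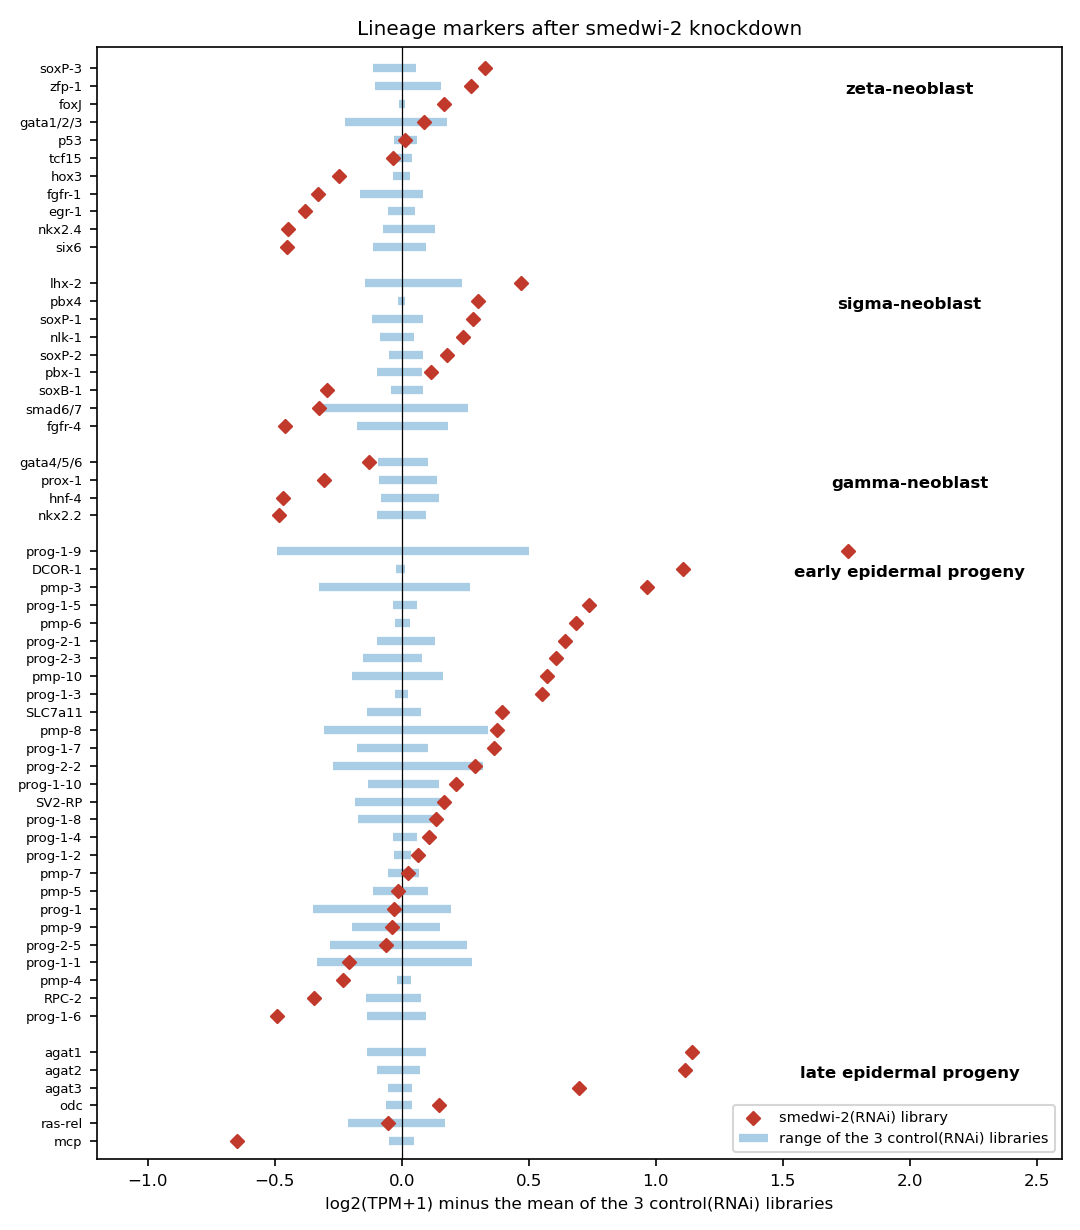
Difference of each lineage marker from the mean of the 3 controls in log2(TPM+1), with diamonds for the smedwi-2(RNAi) library and bars for the range of the 3 control(RNAi) libraries. The 4 gamma markers lie left of their bars, 16 of 27 early markers lie right of theirs, and agat1 and agat2 stand at 1.14 and 1.11 while mcp stands at −0.65. Of all transcripts, 31.9% lay below and 36.6% above the control range.

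The RNA-binding proteins (RBPs) of the study offer a wider view, since it lists 300 transcripts with their abundance in sorted cells. X1 cells are the cycling, radiation-sensitive fraction and consist largely of neoblasts, and Xins cells are the radiation-insensitive, differentiated ones. Of the 300, 286 were kept, with 3 higher and 3 lower, or 1.05% each way, and a median difference of 0.09. Both shares were below those of all transcripts, 3.04% and 3.63%.

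The median followed the sorted-cell bias at its extremes. RBPs whose X1 level exceeded the Xins level by 3 log2 units or more had a median difference of 0.31, and 12 of the 15 kept had a difference above 0. The group contains smedwi-1, vasa-1, the PIWIL1 match and the DDX4 match described above. For a bias of 2 to 3 the median was 0.14 over 57 transcripts, for 1 to 2 it was 0.08 over 102, and for −1 to 1 it was 0.09 over 70. RBPs with a bias of −1 or less, those of differentiated cells, had a median of −0.07, and 17 of 42 had a difference above 0. Among all transcripts 8264 of 15551 did.

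In summed abundance, the RBPs with the strongest X1 bias reached 1232 TPM in smedwi-2(RNAi) worms and 413 TPM in the smed-h2b(RNAi) library, against 904, 972 and 975 TPM in the controls. The RBPs of differentiated cells reached 1795 TPM in smedwi-2(RNAi) worms and 1967 TPM in the smed-h2b(RNAi) library, against 1762, 1908 and 1933 TPM in the controls. The first sum thus lay above all 3 controls in smedwi-2(RNAi) worms, and the second among them. The first includes smedwi-1, vasa-1 and the PIWIL1 and DDX4 matches, so it partly repeats the values described above for them.

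**Figure D4:**
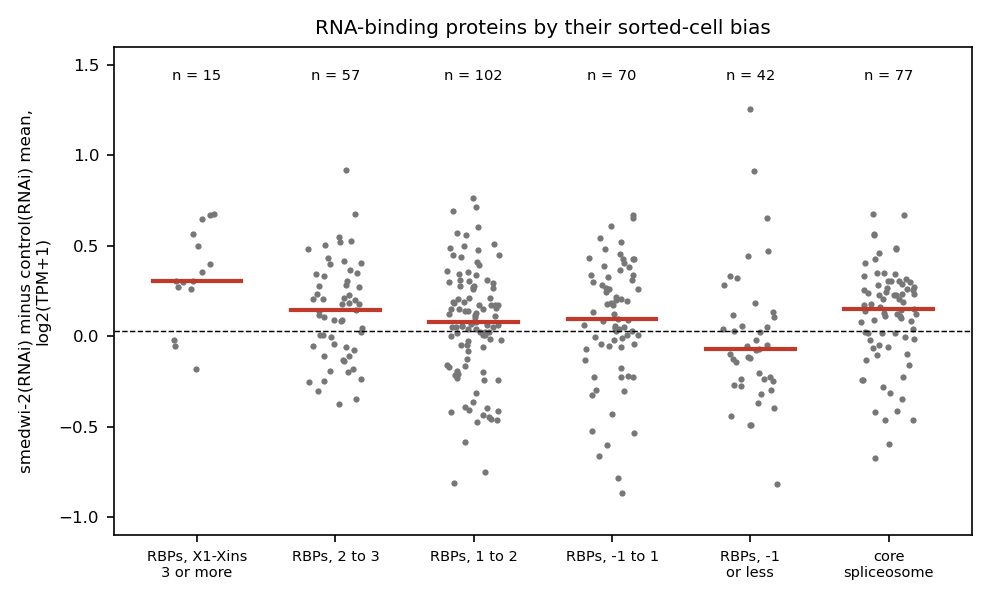
Difference of each RBP transcript between smedwi-2(RNAi) and the control mean in log2(TPM+1), grouped by the X1 minus Xins difference in sorted cells, with the core spliceosome as a sixth group; red lines mark medians and the dashed line the median of all transcripts, 0.03. The median is 0.31 in the group with the strongest X1 bias and −0.07 in the group with a bias of −1 or less, with wide overlap of the single transcripts.

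Of the 3 RBPs that rose, smedtud1 was described above and the other two belong to the list of differentiated cells, where 2 of 42 transcripts, or 4.76%, were higher, against 3.04% of all transcripts, and the median was −0.07. A transcript with the best human match DHX8, a DEAH-box helicase that releases spliced mRNA from the spliceosome (comp12329_c0_seq1), had 25.0 TPM in smedwi-2(RNAi) worms, against 10.3, 11.3 and 8.26 TPM in the controls. It was also at 22.4 TPM in the smed-h2b(RNAi) library, at 12.9 to 21.3 TPM in the bruli(RNAi) libraries and at 16.2 to 19.0 TPM in the mbnl(RNAi) libraries. The controls were thus the lowest libraries of the series for this transcript. An RBP without a human match (comp3575_c0_seq1) had 34.0 TPM in smedwi-2(RNAi) worms, against 15.6, 19.2 and 18.1 TPM. It too was at 21.5 TPM or more in the 7 other knockdown libraries. A further transcript of the list, with the best human match MEX3A (comp6053_c0_seq1), had 50.7 TPM in smedwi-2(RNAi) worms and 49.1 TPM in the smed-h2b(RNAi) library, against 32.7, 30.9 and 31.98 TPM in the controls. It lay above every control in both knockdowns, with a distance of 0.62 in smedwi-2(RNAi) that was not called.

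A further 3 RBPs fell. The ABT1 match, a nucleolar protein of ribosome assembly (comp1929_c0_seq1), had 71.3 TPM in smedwi-2(RNAi) worms, against 123, 139 and 131 TPM in the controls. The match of DDX21, a nucleolar RNA helicase (comp283_c0_seq1), had 384.9 TPM, against 667, 655 and 673 TPM. Neither overlapped its controls. The DDX21 match was lowest in smedwi-2(RNAi) among all libraries of the series, and the ABT1 match was lower only in smed-h2b(RNAi), at 68.1 TPM.

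An RBP without a human match (comp892_c0_seq1) had 244.7 TPM in smedwi-2(RNAi) worms, against 416, 399 and 425 TPM in the controls, at a distance of −0.702 just past the call. It lost the call with a pseudocount of 5 and with median centring. The matches of EIF4A1, the helicase of translation initiation (comp349_c0_seq1), and of G3BP1, a stress granule protein (comp316_c0_seq1), had 980 and 629 TPM in smedwi-2(RNAi) worms. Their differences from the control mean, −0.52 and −0.53, were not called. Nor was that of a match of SF3B6, a branch site protein of the spliceosome (comp11998_c0_seq1), a low transcript with 3.30 TPM in smedwi-2(RNAi) worms, against 6.21, 5.72 and 7.98 TPM in the controls. Another SF3B6 match (comp2216_c0_seq1) differed by 0.15.

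The core spliceosome, 77 transcripts, had no member called and a median difference of 0.15, with 55 differences above 0. Among all transcripts, 8264 of 15551 had a difference above 0, and 3.04% were called higher and 3.63% lower. Within it, the Sm and LSm proteins that form the ring around the spliceosomal RNAs had a median of 0.27 over 12 transcripts, a group chosen after its values were seen. The SNRPD1 match (comp1826_c0_seq1) had 92.4 TPM in smedwi-2(RNAi) worms, against 55.5, 61.7 and 55.6 TPM in the controls. The SNRPD2 match (comp2994_c0_seq1), itself in the neoblast-enriched list, had 89.6 TPM, against 49.6, 58.3 and 60.7 TPM. Both lay above every control, and both were lower in the smed-h2b(RNAi) library, at 34.9 and 39.6 TPM.

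The 51 DEAD-box and DEAH-box helicases kept included the DHX8 match that rose (comp12329_c0_seq1) and the DDX21 match that fell, with a median difference of 0.06. That is 1.96% each way, against 3.04% higher and 3.63% lower among all transcripts. The other transcripts with the best match DHX8 differed by −0.18 to 0.47 and were not called. None of 15 SR and TRA2 proteins, 12 hnRNP proteins or 16 neural-type RBPs was called, against 3.04% higher and 3.63% lower among all transcripts. Their medians were 0.04, 0.11 and −0.02. The neural-type group was formed by best match (ELAVL, NOVA, MSI, RBFOX, CELF or CPEB) and includes the neoblast-enriched bruli. Among the hnRNP and SR proteins, an HNRNPA2B1 match (comp986_c0_seq1) had 304.9 TPM in smedwi-2(RNAi) worms, against 219.5, 211.5 and 206.6 TPM in the controls. Another HNRNPA2B1 match (comp3625_c0_seq1) differed by −0.06, and the SRSF9 match (comp1192_c0_seq1) by 0.51. Of the 22 splicing factors that the study targeted by RNAi, 20 were kept, with none called and a median of −0.09, and of 17 genes with conserved alternative splicing none was called, with a median of 0.08. An EIF3G match, a subunit of a translation initiation factor (comp5500_c0_seq1), had 65.1 TPM in smedwi-2(RNAi) worms, against 38.4, 40.8 and 34.9 TPM. Its distance of 0.66 was the highest among the RBPs not called. Another EIF3G match (comp15937_c0_seq1) differed from the control mean by −0.003.

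Most transcripts that moved have no name in the table, which pairs no identifier with a gene. The 20 that lay furthest above the controls had a median of 54.6 TPM in smedwi-2(RNAi) worms, 5.49 TPM in the smed-h2b(RNAi) library, 1.33 to 1.503 TPM in bruli(RNAi) and 0.98 to 1.76 TPM in mbnl(RNAi), against 1.33 to 1.77 TPM in the control libraries. The distance from the controls is what chose these transcripts, and the filter averaged in the smedwi-2(RNAi) library. Some with controls near 0 were kept only through their high value there, so the low control values follow in part from the selection. Single ones of the 20 reached up to 136 TPM in the smed-h2b(RNAi) library. The furthest, comp1028_c0_seq1, had 68.8 TPM in smedwi-2(RNAi) worms, against 0, 1.48 and 0 TPM in the controls, and comp570_c0_seq1 had 148 TPM, against 1.98, 5.47 and 0.51 TPM. The control values of the first rest on 4 reads in all, so no fold is given.

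At the other end, comp155_c2_seq1 had 58.2 TPM in smedwi-2(RNAi) worms, against 484, 385 and 411 TPM in the controls. The lowest of the other knockdown libraries, bruli(RNAi) of day 20, had 333 TPM. comp9118_c0_seq1 had 6.65 TPM, against 51.6, 46.3 and 50.7 TPM. The 20 transcripts furthest below the controls had a median of 5.17 TPM in smedwi-2(RNAi) worms and of 25.4 to 27.7 TPM in the control libraries. Of all calls, 144 of the 473 higher and 196 of the 565 lower transcripts lay beyond all 10 other libraries of the series by more than 0.7. The controls among these are met by the call itself, so only the other knockdown libraries add a condition.

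**Figure D5:**
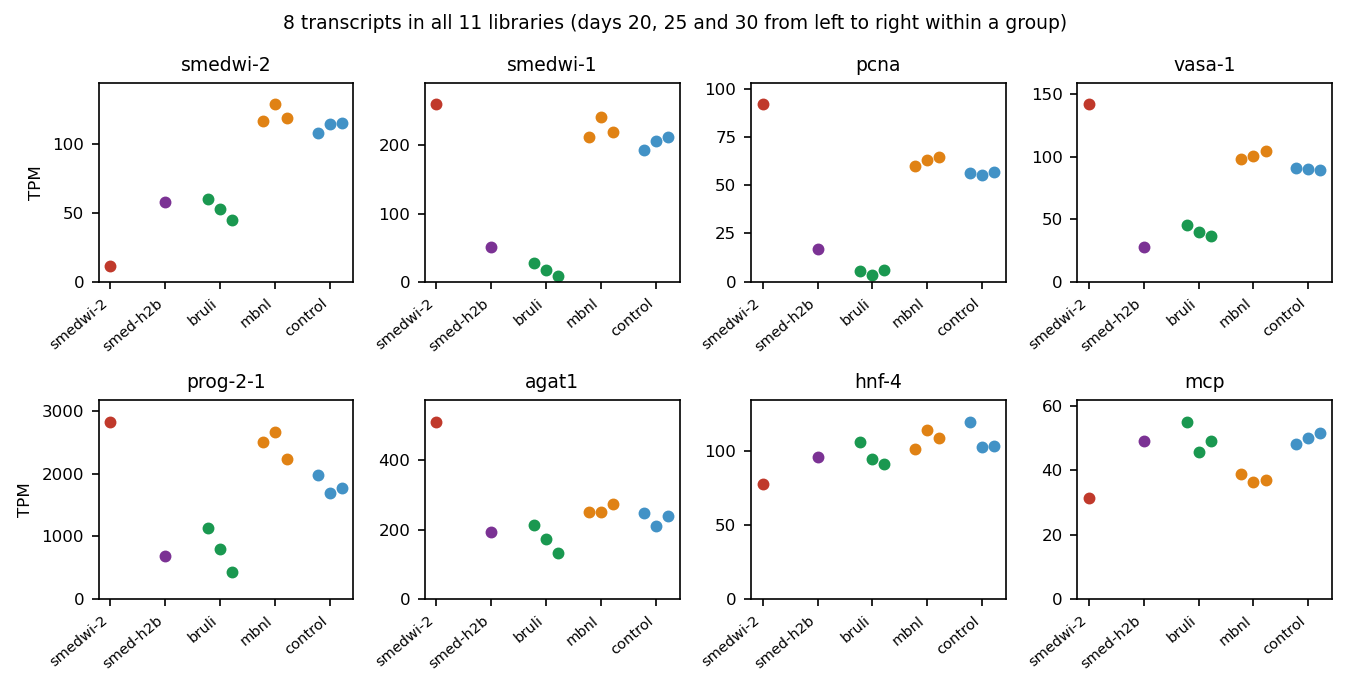
TPM of 8 transcripts in all 11 libraries on linear axes from 0, with smedwi-2(RNAi) at the left of each panel and control(RNAi) at the right, and days 20, 25 and 30 from left to right within a group. smedwi-2(RNAi) holds the highest value for smedwi-1, pcna, vasa-1, prog-2-1 and agat1, and the lowest for smedwi-2, hnf-4 and mcp.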

How the data were processed

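PolyA RNA of whole worms was sequenced from TruSeq libraries. Per the submitters' processing notes, reads were handled with CASAVA 1.8.2, Bowtie2 2.1.0 and HTSeq 0.6.1p1, and the methods name Flexbar for trimming. The authors deposited 1 table of TPM values per transcript of an assembled transcriptome, each column summing to 1000000. TPM is a share, so a gain of some transcripts lowers the others.

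Here log2(TPM + 1) was taken, with a pseudocount of 1, which understates changes of low transcripts. Transcripts with a mean above 1.5 over the 4 libraries were kept. Since TPM steps are whole multiples of 1 read, reads could be recovered to within 0.0001 of a whole number. This was done for 25091 of 25094 transcripts read in 2 or more libraries. The reads served for depth, counting intervals, the comparison of control pairs with sampling noise and 1 alternative filter. Control pairs differed beyond sampling noise, so no 2 of them are the same library.

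The members and lists were chosen with earlier results of these data known. Marker identities were those the study pairs with identifiers in a figure. Some were read from its image, not from a typed list, so a marker may stand beside a misread identifier. Named were the target, the markers, and the members of each list furthest outside the control range, up to 5 per direction, with up to 2 unnamed transcripts. The scripts were tested on simulated data. Alternatives changed the pseudocount, filter, scaling, threshold and controls. Sequences were not analysed here. Analyses used Python 3.11.15, numpy 2.4.6, pandas 2.3.3, scipy 1.17.1 and matplotlib 3.10.9.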

Additional observations from a re-analysis of the deposited data

How the results depend on the processing

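The counts of 473 higher and 565 lower transcripts moved with the definition of a call, the filter, the pseudocount and the controls. A distance above 0.5 gave 897 and 1076, a distance above 1 gave 227 and 213, and a difference from the control mean beyond 0.7 gave 854 and 983. A pseudocount of 5 gave 314 and 278, and omitting the filter gave 1050 higher and 738 lower, so that 58.7% of the calls were higher, against 45.6%. Without 1 control the counts ranged from 554 to 628 and from 645 to 886, the 886 lower transcripts being obtained without the day 20 control. The other scalings gave 422 to 465 and 572 to 635. Requiring 100 recovered reads over the 4 libraries, chosen after seeing the data, gave 369 and 461. The 94 transcripts named or listed as markers were subjected to 12 alternatives, and a reversed sign was recorded only for those called. Among them, 15 were called and none of these 15 reversed. The call was lost under some setting by 3 of the 15: smedtud1, comp3575_c0_seq1 and comp892_c0_seq1. prog-1-5 passed the call without the day 20 control, SNRPD1, EIF3G and SF3B6 matches without that of day 25, the SF3B6 match also with a pseudocount of 0.5, and pmp-3 in 4 settings.

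No paired analysis was possible because the knockdown has 1 library, with no day to match to a control. Depth limits the low transcripts, and 2 of those named, comp1028_c0_seq1 and comp570_c0_seq1, fell out when each of the 4 libraries had to pass the filter.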
